A study of Mus musculus with 141 samples.

Results

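Among cells sorted for the *Aqp5* lineage reporter from the lungs of 1 mouse, 27 cells (19.1% of all cells, Clopper-Pearson 95% interval 13.01 to 26.6) held at least 8000 CPM of *Sftpc*, the gene of surfactant protein C. CPM is the number of reads of a gene among 1000000 reads of the cell. These 27 *Sftpc*-high cells were compared with 64 *Ager*-high cells, which held at least 5000 CPM of *Ager*, a gene of alveolar type 1 (AT1) cells, and with the 50 other cells, which passed neither minimum; together these 3 classes are all cells of the series. No cell passed both minimums. The donor was a male *ACID;R26tdTomato* mouse, 4 months old and labelled strain 129SV. It was heterozygous for both alleles, a Cre-IRES-DsRed cassette placed in exon 1 of *Aqp5* and a tdTomato gene behind a floxed stop at *ROSA26*, and every cell shares them. Cre made from the *Aqp5* locus removes the stop for good, so that tdTomato marks any cell in which *Aqp5* was once active, in airways as well as alveoli. The sort kept cells without CD31 and CD45 and with E-cadherin and tdTomato, and a Fluidigm C1 chip then captured each cell at its own site, where the study kept sites with 1 cell by microscopy.

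With 1 mouse and 1 condition there are no replicates, cells are not replicates of a condition, and no test was made. Intervals beside counts are exact 95% intervals that cover counting error only, since PCR copies without molecular identifiers are not independent molecules. The *Sftpc*-high cells were chosen by *Sftpc* in these same cells, and the *Ager*-high cells by *Ager*, so what follows describes the cells and tests nothing.

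Alveolar type 2 (AT2) cells are the cuboidal cells of the alveolus that make pulmonary surfactant, a film of lipid and protein that lowers surface tension at the air interface. They assemble surfactant in lamellar bodies, which are lysosome-related organelles, secrete it by exocytosis and take part of it up again. AT2 cells also serve as progenitors of the thin AT1 cells that cover most of the gas exchange surface, and they take part in lung host defence.

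The deposited labels name all cells as alveolar type 1, and the markers of the 27 *Sftpc*-high cells went against that label. *Lamp3*, *Napsa*, *Slc34a2*, *Lyz1* and *Hc* are AT2 markers that the choice of cells did not use directly, and a cell was counted as marker-positive with at least 3 of the 5 above 100 CPM. By this count 22 of the 27 *Sftpc*-high cells were marker-positive, of which 9 had all 5 markers, 7 had 4 and 6 had 3. Of the remaining 5 cells, 3 had 2 markers and 2 had 1. None of the 64 *Ager*-high cells and none of the 50 other cells was marker-positive, and 63 and 46 of them had no marker above 100 CPM. The set is therefore called AT2-like, with 5 cells that fall short on the 5 markers.

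The surfactant genes are shown first with their promoters, because NKX2-1 (TTF-1), the transcription factor that drives surfactant genes in lung epithelium, has a known recognition core, CTCAAG. RefSeq promoters (mouse build GRCm38.p6, the 250 bases before the start site, 5′ to 3′) were found for *Sftpa1* and *Sftpb* but not for *Sftpc* and *Sftpd*. The core is in capitals, on the strand shown. It occurs once in *Sftpa1* at chr14:41131538-41131787 (plus strand), where it begins 166 bases before the start site, and at 2 places in *Sftpb* at chr6:72304360-72304609 (plus strand), 100 and 15 bases before it.
Sftpa1: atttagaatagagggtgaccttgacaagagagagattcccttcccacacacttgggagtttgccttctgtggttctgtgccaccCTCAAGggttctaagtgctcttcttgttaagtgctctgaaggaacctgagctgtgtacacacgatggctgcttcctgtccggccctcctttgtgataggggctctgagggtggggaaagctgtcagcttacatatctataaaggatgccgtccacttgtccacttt
Sftpb: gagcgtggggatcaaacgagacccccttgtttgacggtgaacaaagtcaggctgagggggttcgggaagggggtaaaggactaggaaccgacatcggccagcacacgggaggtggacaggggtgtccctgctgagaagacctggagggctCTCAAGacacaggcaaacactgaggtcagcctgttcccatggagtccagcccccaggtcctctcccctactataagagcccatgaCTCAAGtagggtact
On either strand (CTCAAG or CTTGAG) the core was present in 4378 of 32851 RefSeq promoter windows of this length, or 13.3%, so a match of 6 bases is common and describes the sequence only.

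**Figure D1:**
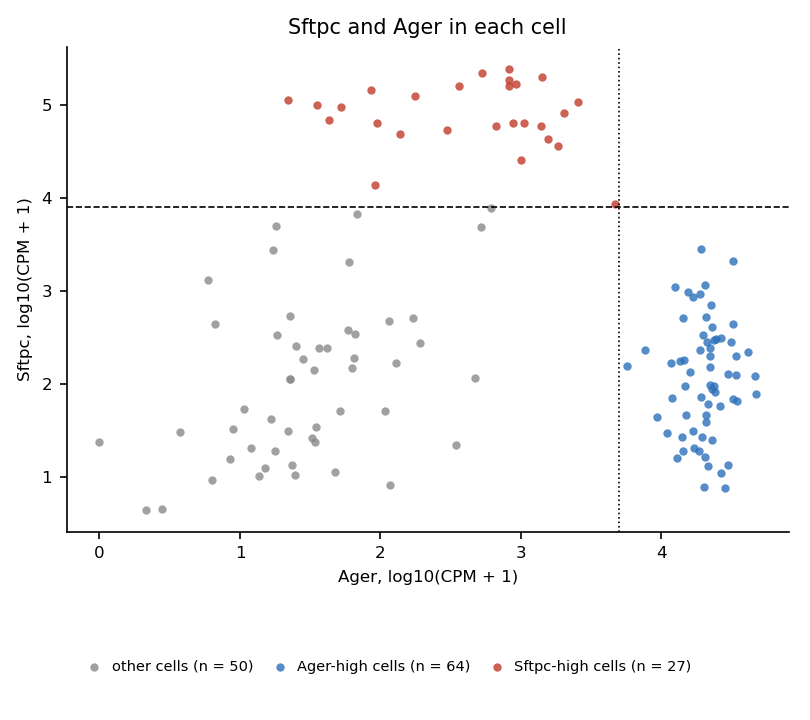
*Sftpc* against *Ager* in each cell, both as log10(CPM + 1), with the minimums of 8000 CPM (dashed) and 5000 CPM (dotted). The 27 *Sftpc*-high cells lie above the dashed line at 8718 to 243977 CPM of *Sftpc*, and no cell lies in the upper right field.

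All 4 surfactant protein genes were high in the 27 cells. *Sftpc* (chr14:70520949-70524081, minus strand in GENCODE vM21 on GRCm38) ranged from 8718 to 243977 CPM with a median of 83214, and it is given as a description because it chose the cells. *Sftpa1* (chr14:41131782-41136452), the gene of a collectin that binds microbes, ranged from 1947 to 40599 CPM with a median of 21070, against a median of 27.1 and a highest value of 1173 in *Ager*-high cells. *Sftpb* (chr6:72304610-72314371), whose small hydrophobic product is required for the surfactant film, ranged from 1842 to 30020 CPM with a median of 11434, against at most 499 in *Ager*-high cells. Thus every *Sftpc*-high cell exceeded every *Ager*-high cell for *Sftpc*, *Sftpa1* and *Sftpb*. These were the only 3 of 7424 genes (0.0404%) for which that was so, counting genes with at least 20 CPM in the summed reads of either class. *Ager*, by which the compared cells were chosen, was the 1 gene (0.0135%) below every *Ager*-high cell. Against the other cells *Sftpc*, likewise used for the choice, was the 1 gene of 7702 (0.013%) above every cell, and no gene was below every cell.

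*Sftpd* (chr14:41172214-41185149), a second collectin, ranged from 546 to 16582 CPM with a median of 6672, and its lowest values overlapped the highest *Ager*-high value of 1207. With the reads of each class summed, *Sftpd* was 6.87 log2 units higher than in *Ager*-high cells (interval 6.81 to 6.94) and *Sftpa1* 8.63 higher (8.56 to 8.69). Against the 50 other cells the same differences were 4.40 and 4.88. For *Sftpb* the difference to the other cells was 3.85, and those cells held up to 9334 CPM of it. The 4 genes together took 17.0% of all reads of the *Sftpc*-high cells and between 1.66% and 28.6% of the reads of each cell, with a median of 12.5%. In *Ager*-high cells the median was 0.0232% and in the other cells 0.0640%.

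The lamellar body genes followed, with large differences between members of the list. Of 14 genes tested on lamellar bodies and surfactant handling, 9 were at least 4-fold higher in *Sftpc*-high than in *Ager*-high cells and 1 was at least 4-fold lower, where 13.9% of all 7424 genes were higher by this measure and 34.1% lower. Much of that background rests on few cells. With reads also required in at least 50% of the *Sftpc*-high cells, 7 of the 14 genes and 2.48% of all genes stayed at least 4-fold higher. The median log2 difference of the list was 4.54 and that of all genes -0.78. Against the other cells 11 of 14 were higher and none lower (all genes 12.1% and 33.3%). A gene that reached the 20 CPM minimum through 1 class alone was bound to differ, and 7 of the 14 did so through the *Sftpc*-high cells. Of the 7 that reached it in *Ager*-high cells as well, 2 were higher (*Npc2* and *Lpcat1*) and 1 lower. In the comparison with the other cells, 6 of the 14 reached it through the *Sftpc*-high cells alone. Of the 8 that reached it in the other cells as well, 5 were higher and none lower.

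*Lamp3* (chr16:19653378-19706375), a membrane protein of lamellar bodies, had reads in 25 of 27 cells, from 0 to 4587 CPM with a median of 1356. Its medians were 1.66 and 0 CPM in *Ager*-high and other cells. *Slc34a2* (chr5:53038081-53071664), the phosphate transporter that recovers phosphate from surfactant phospholipid, was read in all 27 cells at 31.5 to 5826 CPM with a median of 2040, and 26 of them exceeded the highest *Ager*-high value of 97.02 CPM. *Napsa* (chr7:44572380-44586862), the aspartic protease that processes pro-surfactant protein B, ranged from 0 to 3061 CPM with a median of 341. The 3 genes were 7.87, 8.44 and 9.24 log2 units higher in summed reads than in *Ager*-high cells, in that order. All 3 reached the 20 CPM minimum through the *Sftpc*-high cells alone, so they were bound to differ.

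*Npc2*, a lysosomal cholesterol carrier, was read in all 27 cells at 22.03 to 11286 CPM with a median of 4117, 4.51 log2 units above *Ager*-high and 2.78 above other cells. *Lpcat1*, which remodels lecithin towards the dipalmitoyl form, had a median of 1483 CPM and was 2.76 log2 units above *Ager*-high and 6.51 above other cells. Not all genes of this group separated the classes. *Abca3*, the lipid pump of the lamellar body membrane, was at 0 to 1783 CPM with a median of 65.5, and 13 of 27 cells exceeded 100 CPM, as did 18 of 64 *Ager*-high cells. Its summed level differed by 1.12 log2 units from *Ager*-high cells, under 4-fold. *Prdx6*, a peroxiredoxin with phospholipase activity towards surfactant lipid, was lower, with a median of 67.7 CPM against 5207 in *Ager*-high and 1633 in other cells, a difference of -3.28 and -1.75 log2 units.

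**Figure D2:**
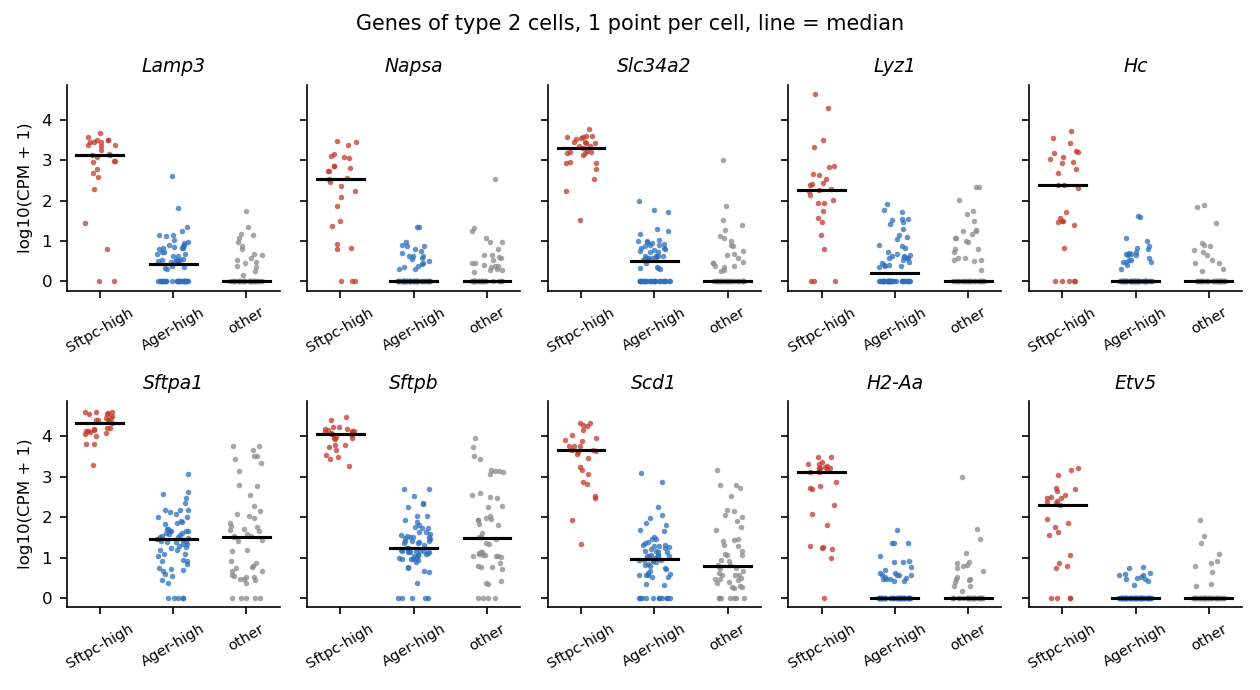
10 genes of type 2 cells in each cell as log10(CPM + 1) for *Sftpc*-high, *Ager*-high and other cells, with 1 point per cell and a line at the median. For *Sftpa1* and *Sftpb* all *Sftpc*-high points lie above all *Ager*-high points, while *Lamp3*, *Napsa*, *Lyz1*, *Hc*, *H2-Aa* and *Etv5* have *Sftpc*-high cells at 0.

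Genes of fatty acid and lipid synthesis, which supply surfactant phospholipid, were higher for part of the list and in part of the cells. Of 22 genes tested, 12 were at least 4-fold higher than in *Ager*-high cells and 1 lower (all genes 13.9% and 34.1%), and 6 of the 12 had reads in at least 50% of the *Sftpc*-high cells (2.48% of all genes). The minimum was reached through the *Sftpc*-high cells alone by 8 of the 22, and of the 14 that also reached it in *Ager*-high cells 5 were higher and 1 lower. The median of the list was 2.08 log2 units against -0.78 for all genes. Against the other cells 12 were higher and none lower, with a median of 2.40 against -0.68 (all genes 12.1% and 33.3%). In that comparison 6 of the 22 reached the minimum through the *Sftpc*-high cells alone. Of the 16 that reached it in both classes, 7 were higher and none lower. *Scd1* (chr19:44394455-44407879), the stearoyl-CoA desaturase, was read in all 27 cells at 20.2 to 21945 CPM with a median of 4533, whereas the medians of the other classes were 8.20 and 5.11 CPM. It was 7.32 log2 units higher in summed reads than in *Ager*-high cells. Its paralog *Scd2* went the other way, with a median of 83.4 CPM against 1706 in *Ager*-high cells and a difference of -1.71.

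*Fasn* (chr11:120805846-120824547), fatty acid synthase, was among the 5 genes of widest spread across the *Sftpc*-high cells, at 0 to 3784 CPM with a median of 22.8, and 11 of 27 cells exceeded 100 CPM. The summed level was 3.77 log2 units above *Ager*-high cells. *Cd36*, a fatty acid uptake protein, was read in 26 cells with a median of 798 CPM and a summed level of 887 against 9.90 CPM in *Ager*-high cells. *Fabp5*, a cytosolic fatty acid carrier, was read in 19 cells at up to 1518 CPM, and in 4 of 64 *Ager*-high cells at up to 9.63 CPM. *Chpt1*, a choline phosphotransferase of lecithin synthesis, was the gene of the list that was lower, at 26.8 against 307 CPM. *Thrsp* counted among the higher genes although its reads came from 2 cells, and without the cell with the most reads its level fell from 82.02 to 0.0946 CPM.

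Genes of MHC class II antigen presentation were read in most of the *Sftpc*-high cells. Of 8 genes in the table, 6 reached 20 CPM in the summed *Sftpc*-high cells, none in *Ager*-high cells and 2 in the other cells (*H2-Ab1* and *H2-Eb1*). The 6 were therefore bound to be higher than in *Ager*-high cells, and their levels are given as a description. The other genes of the list were *H2-DMb2*, at 13.2 CPM over 3 cells, and *Ciita*, read in 1 cell. *H2-Aa* (chr17:34282744-34287823), an alpha chain of the class II heterodimer, was read in 26 of 27 cells at up to 3081 CPM with a median of 1328. Its partner *H2-Ab1* was also read in 26 cells, with a median of 896 CPM. The invariant chain gene *Cd74* was read in 26 cells, all of them above 100 CPM, with a median of 983 CPM, while 3 of 64 *Ager*-high and 1 of 50 other cells exceeded 100 CPM. *H2-DMa*, which loads peptide onto class II, was read in 8 cells only, and its log2 difference to the 1 read of the *Ager*-high cells had an interval of 9.56 to 17.34. *Ptprc* (CD45), the leukocyte antigen that the sort selected against, had 0 reads in the 27 cells, which allows up to 0.276 CPM (3 reads). *Csf1r* had 3 reads. In *Ager*-high cells it was at 398 CPM and read in 45 of 64 cells, so its low level is not read as a lack of macrophages. The other 10 genes of the macrophage list were not analysed here.

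Several host defence genes were also high. Of 16 genes in the list, 10 reached 20 CPM in the summed *Sftpc*-high cells, but only *Lyz2* and *Nfkbia* did so in *Ager*-high cells as well, so a count of higher genes against that class was close to fixed and is not given. *Lyz2* (chr10:117277331-117282321), lysozyme 2, was read in every cell at 14.5 to 35944 CPM with a median of 7541, against at most 328 CPM in *Ager*-high cells, and was 8.31 log2 units higher. It was not particular to these cells, since the other cell at column 2, row 1 held 16039 CPM. *Cxcl15* (lungkine), a chemokine of lung epithelium, was read in every cell at 8.71 to 11208 CPM with a median of 3158 and was 8.85 log2 units higher than in *Ager*-high cells. The other cell at column 15, row 24 held 2060 CPM of *Cxcl15*. *Hc* (chr2:34983331-35061438), complement component C5 and also one of the AT2 markers above, ranged from 0 to 5220 CPM with a median of 246 and was 9.19 log2 units higher. Of the 9 genes that reached 20 CPM in the other cells, 3 were at least 4-fold higher in *Sftpc*-high cells and 5 lower, the lower ones being *C3*, *Cxcl1*, *Ccl20*, *Slpi* and *Cd14* (all genes 12.1% and 33.3%). Of the 9, 4 reached it through the other cells alone and were bound to be lower. Among the 5 genes that reached it in both classes, 3 were higher and 1 was lower.

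*Lyz1* (chr10:117287797-117292868), the neighbouring lysozyme gene and also an AT2 marker, was dominated by 1 cell. It was read in 24 cells with a median of 181 CPM, but the cell at chip column 6, row 30 held 43894 CPM and the cell at column 2, row 39 held 20143 CPM. The first gave 81.6% of all reads, and without it the summed level fell from 3530 to 695 CPM and the log2 difference to *Ager*-high cells from 9.02 to 6.67. *Lyz1* and *Lyz2* transcripts are 95.8% identical over 1264 aligned bases, so reads may have been divided between them and both levels are uncertain. *Il33*, a cytokine, was read in 18 cells at up to 1716 CPM and in 8 *Ager*-high cells at up to 10.8 CPM. *Lcn2*, an iron-sequestering lipocalin, was read in 14 cells at up to 1967 CPM.

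**Figure D3:**
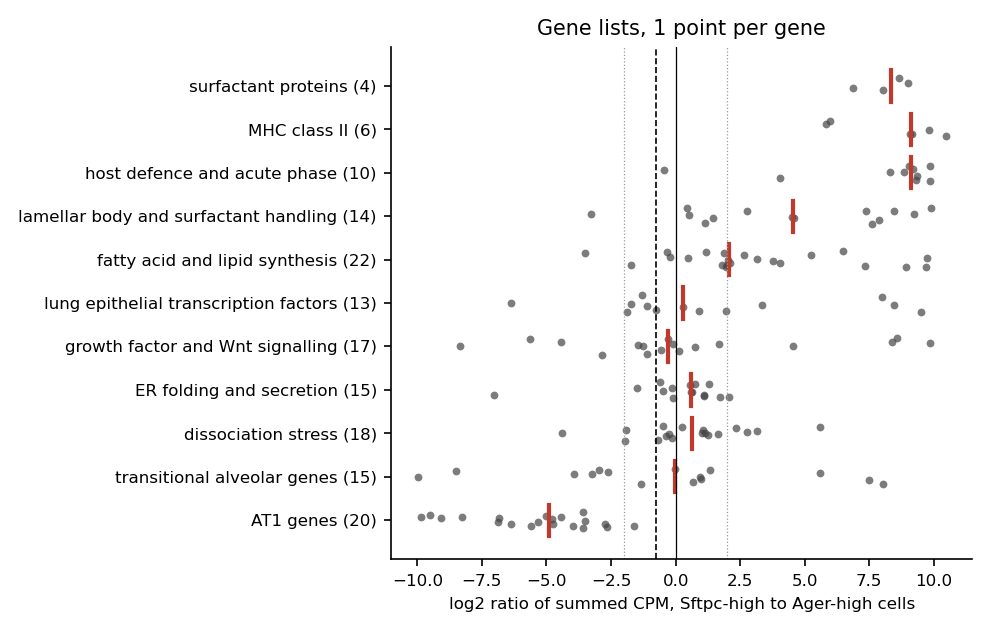
Log2 ratio of summed CPM between *Sftpc*-high and *Ager*-high cells for the tested genes of 11 lists, with 1 point per gene, a red line at the median of the list and the number of genes in parentheses. The dashed line marks the median of all genes, -0.78, and the dotted lines 4-fold; the surfactant list has its median at 8.33 and the AT1 list at -4.90. The MHC class II genes and 8 of 10 host defence genes passed the minimum only through the *Sftpc*-high cells, so their place on the right is fixed by that.

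Among transcription factors the classes shared some and differed in others. *Nkx2-1* had a median of 106.9 CPM in *Sftpc*-high and 53.3 in *Ager*-high cells, with summed levels of 268 and 219 CPM, and was 1.87 log2 units above the other cells. *Etv5* (chr16:22381309-22439719), an ETS factor downstream of FGF signalling, was read in 23 of 27 cells at up to 1599 CPM with a median of 203. It was read in 12 *Ager*-high cells at up to 4.84 CPM, and the summed difference was 9.49 log2 units (interval 8.83 to 10.25). *Cebpa*, a basic leucine zipper factor, was read in 19 cells at up to 252 CPM and was 7.98 log2 units above *Ager*-high cells (interval 6.93 to 9.30). *Hopx*, a homeodomain protein of AT1 cells, was -6.36 log2 units apart, at 67.6 against 5532 CPM. *Sox2*, an airway factor, had 1 read in the 27 cells and 121.1 CPM in the other cells. In all, 4 of 13 factors tested were at least 4-fold higher than in *Ager*-high cells and 1 lower (all genes 13.9% and 34.1%). Of the 8 that reached 20 CPM in *Ager*-high cells, none was higher.

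Growth factor and Wnt genes differed in both directions, as all genes did. Of 17 tested, 4 were at least 4-fold higher than in *Ager*-high cells (*Egfl6*, *Lgi3*, *Areg* and *Axin2*) and 4 lower (*Egfr*, *Id1*, *Vegfa* and *Notch2*), against 13.9% and 34.1% of all genes, with a median of -0.29. All 4 higher genes reached the 20 CPM minimum through the *Sftpc*-high cells alone. Of the 8 genes that reached it in both classes, none was higher and 1 was lower, so both counts were largely set by the minimum. *Egfl6*, a secreted protein with EGF repeats, was read in 19 cells at up to 2475 CPM with a median of 155, and in 10 *Ager*-high cells at up to 10.98 CPM. *Lgi3*, also secreted, was read in 22 cells with a median of 132.1 CPM. *Axin2*, a feedback target of Wnt signalling, had reads in 2 of the 27 cells, with 497 CPM in the higher, and none in *Ager*-high cells. *Vegfa*, the endothelial growth factor, was at 174 against 3785 CPM and was read in 22 of 27 cells and all 64 *Ager*-high cells. *Egfr*, the EGF receptor, was at 0.368 against 118.99 CPM.

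AT1 genes were low in the *Sftpc*-high cells but most were not at 0. Whether their low reads came from neighbouring sites of the chip was not tested. Some were below the summed level of the other cells, such as *Hopx* at 0.447 and *Pdpn* at 0.0106 of it. Others were above it, such as *Ager* at 8.35 and *Cldn18* at 11.8 times that level. Of 20 AT1 genes, 19 were at least 4-fold lower than in *Ager*-high cells, all 19 with reads in at least 50% of the *Ager*-high cells, and the median was -4.90 log2 units (34.1% of all genes were lower). The list is of genes high in AT1 cells, all 20 reached the minimum in *Ager*-high cells and 8 of them there alone, so the count is a description. As a share of the *Ager*-high level, the level in *Sftpc*-high cells ran from 0.107% to 32.6% with a median of 3.35%. At the low end, *Sema3e*, a secreted semaphorin, was at 0.644 against 599 CPM. *Pdpn* (chr4:143267431-143299564), podoplanin, had 14 reads over 7 of the 27 cells, at most 17.2 CPM in a cell, against a median of 638 CPM in *Ager*-high cells.

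At the high end stood *Cldn18* (chr9:99689461-99717267), a claudin of alveolar tight junctions, the 1 gene of the list within 4-fold. It was read in 22 of 27 cells with a median of 423 CPM, against 2079 in *Ager*-high and 4.47 in other cells. *Gprc5a* (chr6:135065651-135084709), a retinoic acid-inducible receptor, was read in 23 cells with a median of 190 CPM, against 1496 and 12.4 CPM, a difference of -2.72 log2 units to *Ager*-high cells.

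*Ager* (chr17:34597862-34600936), the receptor for advanced glycation end products, was read in all 27 cells at 21.1 to 4696 CPM with a median of 820. The median was 20847 CPM in *Ager*-high cells, which were chosen by it, and 25.6 CPM in the other cells, which were chosen to lie under the same minimum. Compared with the other cells, 4 of 14 AT1 genes tested were at least 4-fold higher in *Sftpc*-high cells, namely *Ager*, *Aqp5*, *Akap5* and *Cldn18*, and *Pdpn* and *Sema3e* were lower (all genes 12.1% and 33.3%). *Aqp5* and *Akap5* reached the 20 CPM minimum through the *Sftpc*-high cells alone, and *Pdpn* and *Sema3e* through the other cells alone. Of the 10 genes that reached it in both classes, 2 were higher (*Ager* and *Cldn18*) and none lower. Of the *Akap5* reads 76.8% came from 1 cell, and without it the level fell from 113.9 to 27.05 CPM.

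*Aqp5* (chr15:99590782-99594829), the aquaporin whose locus drives the Cre, was read in 21 of the 27 *Sftpc*-high cells (77.8%, interval 57.7 to 91.4), at 0 to 1188 CPM with a median of 10.1. It was read in 59 of 64 *Ager*-high cells with a median of 400 CPM, and in 24 of 50 other cells with a median of 0. Thinned to 90000 reads in each cell, 15 of 27 *Sftpc*-high cells kept a read against 59 of 64 and 15 of 50. Depth therefore bears on the shares of the *Sftpc*-high and of the other cells. At 10 CPM or above were 14 of 27, 58 of 64 and 10 of 50 cells. Whether reads below that level came from neighbouring sites of the chip was not tested. In summed reads *Aqp5* was -2.68 log2 units from *Ager*-high cells and 2.43 above the other cells. The values were uneven, with 7 of 27 cells at 100 CPM or above. Among cells under 15% mitochondrial reads the difference to *Ager*-high cells was -4.38. Both classes have fewer cells there, and the part of cell quality in the result was not tested.

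The reporter itself was seldom read in *Sftpc*-high cells. tdTomato was read in 5 of 27 cells (18.5%, interval 6.30 to 38.1), against 51 of 64 *Ager*-high cells (79.7%, 67.8 to 88.7) and 37 of 50 other cells (74%, 59.7 to 85.4). The 5 values were 3.26, 15.2, 70.2, 124.01 and 142 CPM. Thinned to 90000 reads, 4 of 27, 44 of 64 and 31 of 50 cells kept a read. In summed reads the difference was -2.18 log2 units to *Ager*-high cells, but the deepest cell (column 12, row 33) held most of the 268 reads, and without it the difference was -3.64. The share did not rise in cells with lower mitochondrial share, with 2 of 11 cells under 15% and 3 of 16 at or above it, whereas in *Ager*-high cells it was 39 of 45 and 12 of 19.

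Of the 5 *Sftpc*-high cells with a tdTomato read, 4 also had an *Aqp5* read, among 21 of 27 with one. Of the 7 cells with at least 100 CPM of *Aqp5*, 1 had a tdTomato read, as did 4 of the 20 cells below. In *Ager*-high cells the same counts were 38 of 48 and 13 of 16. *Actb*, a housekeeping gene, was read in all 27 cells with a median of 2669 CPM, against 4121 and 2070.

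**Figure D4:**
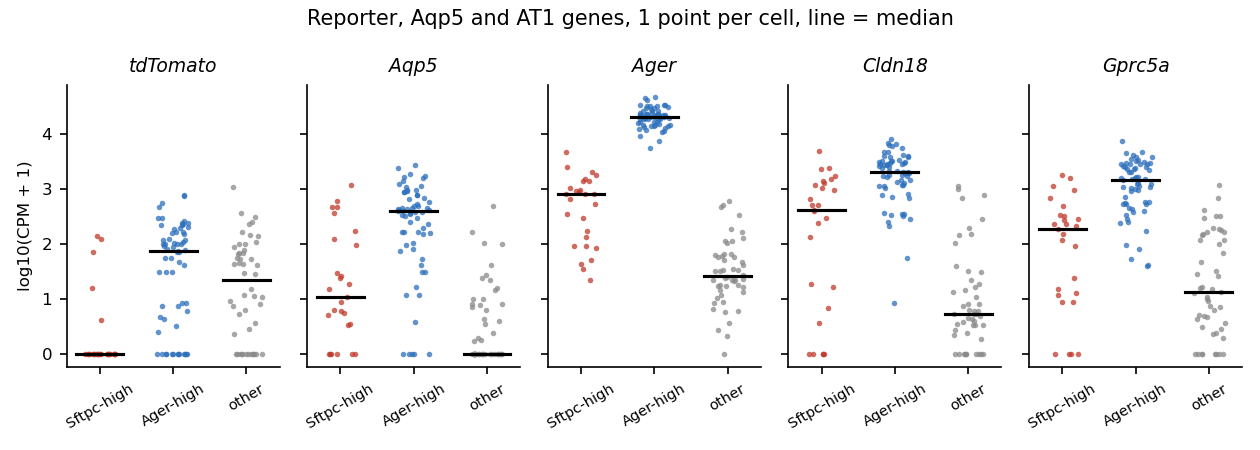
tdTomato, *Aqp5*, *Ager*, *Cldn18* and *Gprc5a* in each cell as log10(CPM + 1) for *Sftpc*-high, *Ager*-high and other cells, with 1 point per cell and a line at the median. tdTomato has its *Sftpc*-high median at 0 with 5 cells above it, while *Ager* in *Sftpc*-high cells has a median of 820 CPM, between the other classes.

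Over the whole transcriptome, 1035 of 7424 genes were at least 4-fold higher in *Sftpc*-high than in *Ager*-high cells and 2531 at least 4-fold lower, which fall to 184 and 309 (4.16%) with reads in at least 50% of the cells of the higher class. Against the other cells the counts were 933 and 2565 of 7702 genes, falling to 93 (1.21%) and 143 (1.86%). Of the calls against the other cells, 26.7% were higher, and 39.04% with TMM scaling factors, which raise the median log2 difference over all genes by 0.66 there and by 0.45 against *Ager*-high cells. The *Sftpc*-high class also had fewer cells and fewer reads per cell, and the part of depth in the number of lower calls was not tested.

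The 20 genes with the largest difference to *Ager*-high cells, among genes read in at least 50% of the *Sftpc*-high cells, ran from 10.13 to 9.02 log2 units. Led by *Slc26a9*, a chloride transporter of airway and alveolar epithelium, they held, of host defence, *Ptgs2*, *Il33*, *Lcn2*, *Hc* and *Lyz1*, the class II genes *H2-Aa*, *H2-Ab1* and *H2-Eb1*, and *Fabp5* and *Acot7*, which handle fatty acids. The remaining genes were *Egfl6*, *Cpm*, *Adam19*, *Enpep*, *Etv5*, *Cd200*, *Mlc1*, *Napsa* and *Mal*. In *Ager*-high cells each was at 0.0895% to 0.193% of its *Sftpc*-high level, with a median of 0.147%. These shares restate the ranking by which the genes were picked. All 20 were at most at 6.81 CPM in *Ager*-high cells and reached the 20 CPM minimum through the *Sftpc*-high cells alone. *Acot7*, an acyl-CoA thioesterase, was read in 22 of 27 cells with a median of 187 CPM, and *Cpm*, a membrane carboxypeptidase, in 18 cells with a median of 35.9 CPM. *Slc26a9* was read in 14 cells at up to 1251 CPM.

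Against the other cells the 10 largest differences were those of *Mlc1*, *Lamp3*, *Adam19*, *Hc*, *Acoxl*, *Lyz1*, *Sftpc*, *Napsa*, *Etv5* and *Scd1*, from 10.86 to 6.95 log2 units. *Mlc1*, a membrane protein known from astrocytes, was read in 18 of 27 cells at up to 1791 CPM with a median of 11.9, and in 5 of 50 other cells at up to 3.45 CPM. *Adam19*, a metalloprotease, was read in 15 cells at up to 1802 CPM and in 4 cells of each other class, at most 8.84 CPM. At the other end, the 10 genes lowest against *Ager*-high cells were *Tmem140*, *Csf1r*, *Fbln5*, *Flrt3*, *Rasgrf2*, *Gpm6a*, *Itgb6*, *Ptpre*, *Sema3e* and *Bdnf*. Their levels in *Sftpc*-high cells were 0.0386% to 0.109% of those in *Ager*-high cells, with 2 to 10 reads over all 27 cells. These shares, too, restate the ranking. *Flrt3*, an adhesion protein, was at 0.919 against 1185 CPM.

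Genes of the transitional state between AT2 and AT1 cells, and of cell division, differed in both directions, as all genes did, or were barely read. Of 15 transitional genes tested, 3 were at least 4-fold higher than in *Ager*-high cells (*Ccnd1*, *Cdkn1a* and *Sfn*) and 6 lower, against 13.9% and 34.1% of all genes. All 3 higher genes reached the minimum through the *Sftpc*-high cells alone and were bound to differ. Only 1 of the 3 had reads in at least 50% of the *Sftpc*-high cells. Of the 10 genes that reached the minimum in both classes, none was higher and 4 were lower. The list had a median of -0.04, the value of *Lgals3*, which turned positive with TMM factors. *Krt8*, the keratin for which the state is named, was read in 21 of 27 cells at up to 9401 CPM with a median of 202, against medians of 124.4 and 324 CPM. *Itgb6*, an integrin subunit, had 3 reads in the 27 cells. *Mki67* and *Top2a*, made in dividing cells, had 4 and 3 reads, and 6 of the 12 genes of the division list were not analysed here. Of 15 genes of folding and secretion in the endoplasmic reticulum, 1 was at least 4-fold higher than in *Ager*-high cells (*Atf4*) and 1 lower (*Ddit3*), with a median of 0.59. For all genes the shares were 13.9% and 34.1% and the median -0.78. *Ddit3* reached the minimum through the *Ager*-high cells alone. Of 18 dissociation stress genes, 4 were at least 4-fold higher than in *Ager*-high cells (*Jun*, *Egr1*, *Atf3* and *Ier2*) and 1 lower, with a median of 0.63 for the list (all genes 13.9% and 34.1%). *Egr1* reached the minimum through the *Sftpc*-high cells alone. Against the other cells none of the 18 was higher and 2 were lower, with a median of -1.32. There the shares of all genes were 12.1% and 33.3% and their median -0.68.

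Markers of other lung cells were mostly near 0. The basal cell list summed to 2.85 CPM in *Sftpc*-high cells against 1655 in the other cells, the fibroblast list to 2.67 against 2124, and the endothelial list, with 6 of its 8 genes analysed here, to 0.368 against 17.8 CPM. *Trp63*, *Col1a1*, *Cdh5* and *Syp* were at 0. The ciliated list summed to 259 CPM against 3956, almost all of it *Tppp3*, with *Foxj1* at 0.460 CPM. Club cell genes were less clear. *Scgb1a1*, the club cell secretoglobin, was read in 26 of 27 cells with a median of 39.6 CPM, and in 59 of 64 *Ager*-high cells with a median of 172 CPM. *Cbr2*, a carbonyl reductase of the same list, was at 37.4 to 11373 CPM with a median of 3158, against 33.8 in *Ager*-high and 17236 in other cells. Of the 27 cells, 2 had at least 50% of the 10 club genes above 100 CPM, as did 5 of 64 *Ager*-high and 24 of 50 other cells. Among the *Sftpc*-high cells, the cell at column 9, row 12 had 9 of the 10 genes, with 24919 CPM of *Scgb1a1*, and the cell at column 16, row 6 had 7, with 5033 CPM. The part of these cells in the club gene levels was not tested.

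**Figure D5:**
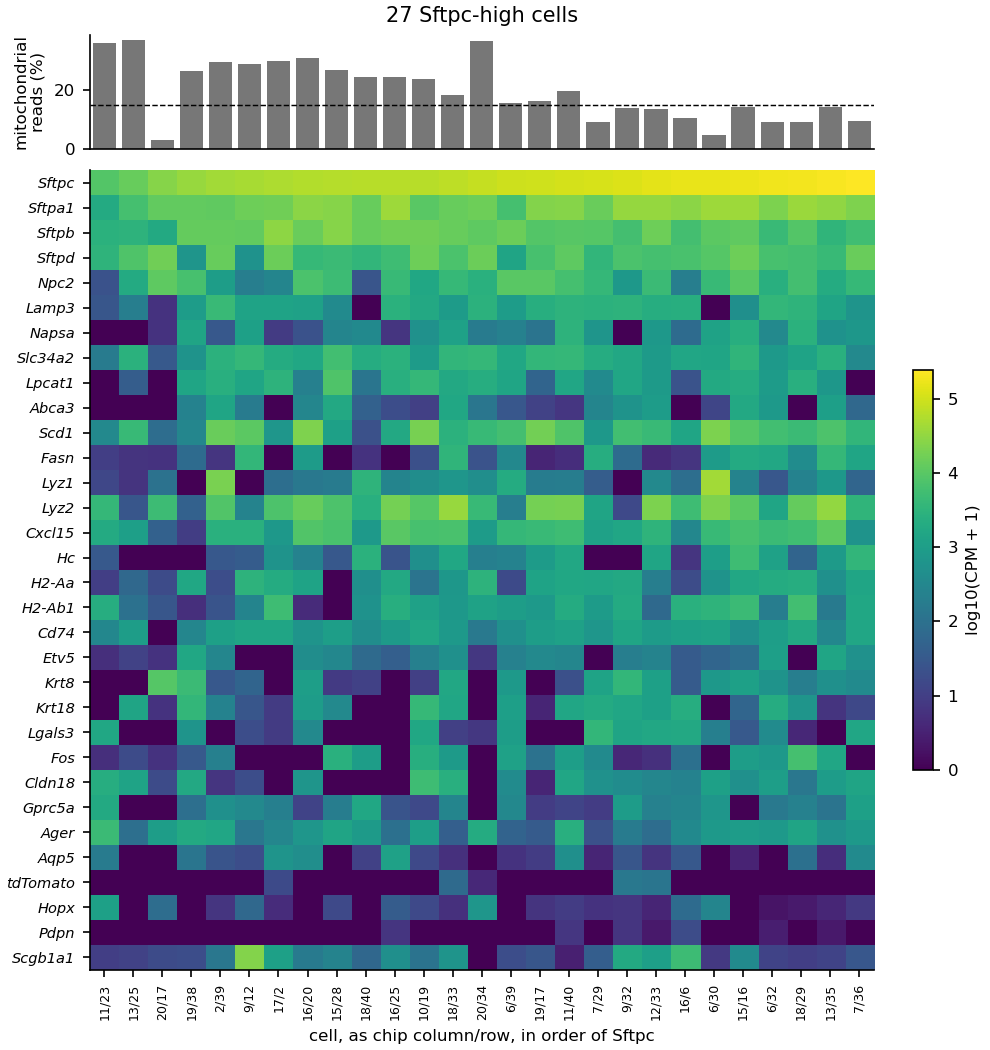
32 genes in the 27 *Sftpc*-high cells as log10(CPM + 1), with 1 cell per column in the order of *Sftpc* and bars for the share of mitochondrial reads, where the dashed line is 15%. *Sftpa1*, *Sftpb* and *Sftpd* are high in every column, while *Fasn*, *Hc*, *Krt18*, *Lgals3*, *Fos* and *Cldn18* are near 0 in part of the cells.

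Within the 27 cells, *Lgals3*, *Krt18*, *Fos* and *Fasn* were among the 5 genes of widest spread, by interquartile range on the log2(CPM + 10) scale among genes of at least 50 CPM. *Lgals3*, a galectin, ran from 0 to 3685 CPM with a median of 18.2, and *Krt18*, an epithelial keratin, from 0 to 4105 CPM with a median of 350. *Fos*, an immediate early gene, ran from 0 to 6362 CPM with a median of 97.7. Reads per cell ran from 109877 to 1483749 with a median of 306356, against 426602 and 536054 in the other classes, and genes detected from 1216 to 4711 with a median of 2384.

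The share of mitochondrial reads was higher in *Sftpc*-high cells, with a median of 18.2% and a range of 3.08% to 36.9%, against medians of 11.9% and 9.96%. The study kept cells under 15%, a limit that 16 of the 27 cells exceeded (59.3%, interval 38.8 to 77.6), as did 19 of 64 *Ager*-high and 14 of 50 other cells. After this limit *Sftpc*-high cells were 11 of 92 cells, or 11.96%. The 11 cells had a median of 161808 CPM of *Sftpc* and 918 CPM of *Fasn*, and the 16 cells had 62423 and 7.38 CPM, with 413806 and 244845 reads per cell. Other genes went the other way, with medians of 6010 and 13388 CPM for *Sftpb* and 1496 and 2759 CPM for *Slc34a2*, and 8 of the 11 and 14 of the 16 cells were marker-positive.

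Cells near the minimum differed from the rest of the set. Just inside it lay the cell at column 11, row 23 with 8718 CPM of *Sftpc*, which also had 4696 CPM of *Ager*, 1132 of *Hopx*, 4189 of *Akap5*, 11 of 20 AT1 genes above 100 CPM and 1 of the 5 AT2 markers. Next came the cell at column 13, row 25 with 13859 CPM and 2 markers, and the cell at column 20, row 17 with 25437 CPM, 1 marker and 9401 CPM of *Krt8*. Just outside lay 4 cells at 7774, 6694, 4970 and 4947 CPM. They had 281134, 1686, 1685 and 402564 CPM of *Scgb1a1*, in that order, and the last had 2 AT2 markers, *Napsa* at 347 and *Slc34a2* at 1039 CPM, while the others had none.

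*Sftpc* was read in every one of the *Ager*-high and other cells. On the chip, *Sftpc*-high cells occupied 14 of 20 columns, with up to 3 in a column. In the 14 columns the 80 cells below the minimum had a median of 170 CPM of *Sftpc*, and in the 6 columns without an *Sftpc*-high cell the 34 cells had 29.9. The same held for other genes high in these cells, with medians of 32.6 and 10.3 CPM for *Sftpa1*, 14.7 and 4.11 for *Lyz2*, and 10.2 and 2.35 for *Scd1*. Levels of these genes of this size in single cells of the other classes were therefore not read as expression, and whether the reads came from neighbouring sites was not tested.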

How the data were processed

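Single cells of 1 mouse were captured on a Fluidigm C1 mRNA Seq HT chip and sequenced in pairs of reads after Nextera XT preparation. The authors trimmed reads with Trim Galore, checked them with FastQC, aligned them by HISAT2 (GRCm38) and assigned them to genes by featureCounts; versions and the strand setting were not given in the sources used here. The deposited values are unnormalized read counts of 17136 genes in 141 cells. Positions are those of GENCODE vM21.

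Classes were formed by CPM of *Sftpc* and *Ager*, counts were summed over each class, and log2 ratios took each count as at least 3. Genes with at least 20 CPM in either sum were compared and called at 4-fold. Genes named were the 20 highest and 10 lowest against *Ager*-high cells and the 10 highest against other cells (at least 50 CPM and reads in at least 50% of the higher class), the 5 of widest spread, tdTomato, *Actb* and genes of 20 lists that mark the ends of a list or define a cell type. Some genes that these rules name are not reported here. The cells and lists were chosen with earlier results of these data known. Cells were thinned to 90000 reads without replacement. Doublets were not called by software. Python 3.11.15 (numpy 2.4.6, pandas 2.3.3, scipy 1.17.1, matplotlib 3.10.9) was used, and edgeR 4.0.16 in R 4.3.3 for TMM factors only. Alternatives changed the minimums, scaling, weighting, quality limit, depth and detection.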

Additional observations from a re-analysis of the deposited data

How the results depend on the processing

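Of 89 recomputed values, 59 stayed within the spread set for them and 30 moved. Leaving out cells that pass both minimums removed no cell, so the values of that alternative could not move. Only the log2 differences of *Aqp5*, tdTomato and the lipid list could change sign, and none did. Some single genes did change sign with the scaling, such as *Dusp6* and *Xbp1* against *Ager*-high cells with TMM factors. With cells under 15% mitochondrial reads, 11 *Sftpc*-high cells were left, the *Aqp5* difference to *Ager*-high cells was -4.38 log2 units instead of -2.68, that of tdTomato -1.77 instead of -2.18, the median of the lipid list 1.81 instead of 2.08, and the median *Sftpc* of cells below the minimum in shared chip columns 199.9 CPM. For *Aqp5* and tdTomato the differences were -3.03 and -1.77 with a minimum of 4000 CPM, -2.91 and -1.78 without mitochondrial reads in the library size, -2.02 and -3.20 as means of per-cell CPM, -2.35 and -1.86 with TMM factors, and -2.47 and -3.64 without the deepest cell. The lipid list had a median of 2.59 as means of per-cell CPM, 2.40 with TMM factors, 2.28 without the deepest cell and 2.201 without the 5 cells short of 3 markers, the last an alternative chosen after seeing the data. The share of *Sftpc*-high cells with an *Aqp5* read was 55.6% after thinning. Without a minimum level 2343 and 4441 genes were higher and lower than in *Ager*-high cells and 1756 and 5761 against other cells, since more genes are counted. At 2-fold 1720 and 1670 genes were higher. With reads in at least 50% of the higher class, also chosen after seeing the data, the counts were 184, 309, 93 and 143. Depth limits low genes, since 0 reads in the summed 27 cells allow up to 0.276 CPM (3 reads). No paired analysis was possible because all cells form 1 group and the result comes from no test.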
